A study of Mus musculus with 5 samples.

Results

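The genes described here are 7 transcripts of naive and recirculating B cells, Fcer2a, Klf2, Ccr7, S1pr1, Gpr183, Cd38 and Ccr6, which germinal center B cells are known to hold at lower levels than their naive precursors. They were picked by name from a table of 38924 gene rows, and each had 1 row. The RNA came from germinal center B cells of the spleen that were sorted by flow cytometry (as eGFP+ cells, per the title of the study) at day 7 after immunization with sheep red blood cells. The WT group held 3 libraries from Cg1-Cre mice. The DKO group held 2 libraries from littermates that carried the same Cg1-Cre together with floxed Relb and floxed Nfkb2 alleles on both chromosomes (relbfl/fl nfkb2fl/fl). All mice were 12 weeks old and immunized, so both groups share the Cre transgene, the age and the immunization. Cg1-Cre is driven by transcription of the IgG1 constant region gene, so a cell that never transcribed it keeps its floxed alleles. The labels do not say whether a library came from 1 mouse or from pooled mice, so p-values measure the spread between these libraries.

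A naive follicular B cell circulates between blood, spleen and lymph nodes. The transcription factor KLF2 keeps it quiescent and maintains receptors for trafficking, S1PR1 draws it out of lymphoid tissue along a sphingosine 1-phosphate gradient, CCR7 and GPR183 (also called EBI2) place it at the T cell border and in the outer follicle, and CD23 and CD38 mark its surface. In the mouse a B cell that joins a germinal center lowers these genes and turns on Bcl6 and S1pr2, the receptor that keeps it confined. Several of the 7 genes are not restricted to B cells: naive T cells are also known to transcribe Klf2, Ccr7 and S1pr1.

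Promoter sequences are shown first, because Relb and Nfkb2 encode DNA-binding factors. Whether the promoters bear on the levels of the 7 genes was not tested. RefSeq promoters of GRCm38.p6, each from 250 bases before to 50 bases after a transcript start, matched 5 of the 7 genes by symbol, with 8 starts. Ccr7 and S1pr1 had no entry. The 3 shown are those of Klf2, which varied most between libraries, of Fcer2a, which had the highest level, and of the downstream start of Ccr6, the one start among the 8 with a match to the NF-κB consensus. Capitals mark matches, on either strand, to the motifs named after the sequences.
Klf2, chr8:72318812-72319111, plus strand: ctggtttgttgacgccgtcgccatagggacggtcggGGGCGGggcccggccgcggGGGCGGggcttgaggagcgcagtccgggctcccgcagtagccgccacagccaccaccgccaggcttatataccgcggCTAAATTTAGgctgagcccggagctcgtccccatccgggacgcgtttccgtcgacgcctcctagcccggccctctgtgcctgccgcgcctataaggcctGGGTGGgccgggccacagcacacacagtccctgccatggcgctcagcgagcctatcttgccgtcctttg
Fcer2a, upstream start, chr8:3694125-3694424, minus strand: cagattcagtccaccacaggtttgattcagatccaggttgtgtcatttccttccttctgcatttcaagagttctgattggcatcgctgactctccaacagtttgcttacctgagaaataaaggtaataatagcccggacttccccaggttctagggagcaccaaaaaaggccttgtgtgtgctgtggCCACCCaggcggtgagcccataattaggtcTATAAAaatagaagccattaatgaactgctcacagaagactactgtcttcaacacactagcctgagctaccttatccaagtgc
Ccr6, downstream start, chr17:8242276-8242575, plus strand: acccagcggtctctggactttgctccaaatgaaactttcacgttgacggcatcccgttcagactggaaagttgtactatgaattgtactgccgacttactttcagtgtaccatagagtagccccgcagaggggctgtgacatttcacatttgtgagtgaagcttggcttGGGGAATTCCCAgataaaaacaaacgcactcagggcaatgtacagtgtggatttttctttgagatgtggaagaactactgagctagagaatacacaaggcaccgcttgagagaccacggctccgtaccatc

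The Klf2 promoter was rich in G and C (69.3%, against a median of 52.7% over all 32851 promoters of this length). It held 2 GC boxes (GGGCGG), 1 MEF2 site (a match to a 10-base letter pattern with some bases free) and 1 KLF box (CCACCC, here read on the other strand as GGGTGG). These motifs are present in 35.7%, 3.69% and 31.5% of all promoters, in that order. The upstream Fcer2a promoter held 1 KLF box and a TATA box (TATAAA, in 13.6% of promoters) at position -33 from the start. In the downstream Ccr6 promoter the match to the NF-κB consensus, from position -81, overlapped a match to the RBPJ core (TGGGAA, read on the other strand). The NF-κB consensus, searched as a 10-base letter pattern with some bases free, has a match in 8.46% of all promoters and the RBPJ core in 25.6%. These motifs, and others without a match in the 3 promoters shown (the FOXO letters TGTTTAC, the octamer ATTTGCAT, the BCL6 and STAT letters TTCNNNGAA, and the STAT6 site, a 10-base letter pattern with some bases free), were chosen with the promoter sequences in view. A match describes letters only, and none of these files measures binding.

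The libraries held 33953377 to 57582464 reads, of which 13.3 to 17.1 M came from outside the mitochondrial genome and the abundant transcript Gm26924. The mitochondrial genome gave 65.7%, 54.5% and 73.1% of reads in WT replicates 1 to 3 and 49.6% and 63.5% in DKO replicates 1 and 2. WT replicate 2 and DKO replicate 1, the libraries where the 7 genes were highest (below), had the lowest such shares and the fewest reads. Whether these are linked was not tested. Values below are normalized counts, the authors' read counts divided by 1 scaling factor per library. The targeted genes were lower in both DKO libraries than in each WT library, to unequal degrees. Relb was at 136, 171 and 117 in WT replicates 1 to 3 and at 56.9 and 10.7 in DKO replicates 1 and 2. Nfkb2 was at 657, 601 and 445 in the 3 WT libraries, against 298 and 73.5 in the 2 DKO libraries. DKO replicate 1 kept 40.2% of the WT mean of Relb and 52.5% of that of Nfkb2. DKO replicate 2 kept 7.59% and 13.0%. Neither gene passed in limma's moderated test described below (log2 fold changes -2.43 ± 0.63 and -1.91 ± 0.51, adjusted p = 0.823 for each). Germinal center genes were abundant in every library, with Bcl6 between 9681 and 11763 and the proliferation gene Mki67 between 38036 and 120604, although Mef2b was listed at 0 in all 5. WT replicate 2 and DKO replicate 1 stood apart in transcripts of other lymphocytes, and the genotype differences of the 7 genes are therefore also given without them. The sum over 13 T cell markers was 186, 1679.8 and 94.2 in WT and 746 and 201 in DKO. The sum over 7 NK cell markers was 35.3, 361 and 3.84 in WT and 107 and 23.1 in DKO. In a sorted population, a larger share of cells of a type and more RNA per cell of that type cannot be told apart.

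All 7 genes were higher in WT replicate 2 and in DKO replicate 1 than in each of the other 3 libraries. The same order was found in 15.3% of the 13242 genes tested. WT and DKO values overlapped in each of the 7, while they did not overlap in 23.4% of genes tested. A gene with that library order must overlap, so the overlap of the 7 is no separate result. In limma's moderated test none of the 7 passed at an adjusted p under 0.05, where 0.00% of genes tested did, and none had an unadjusted p under 0.05, where 6.06% did. EdgeR's quasi-likelihood test on the recovered reads also called 0 of the 7 (0.00% of genes tested), with 0 of the 7 at an unadjusted p under 0.05 (5.65% of genes tested). DESeq2 called 0 of the 7 (0.219% of genes tested), again with 0 at an unadjusted p under 0.05 (6.77%).

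**Figure D1:**
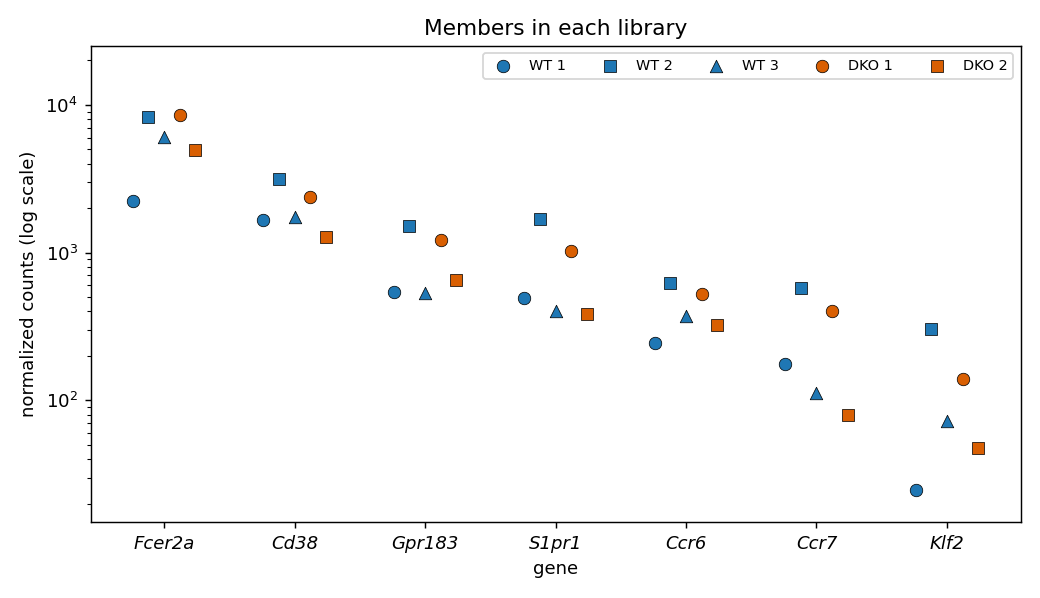
Normalized counts (log scale) of the 7 genes, ordered by mean level, with 1 point per library: blue for the 3 WT and orange for the 2 DKO libraries, the shape giving the replicate. WT replicate 2 and DKO replicate 1 are the 2 highest points of every gene, and the WT and DKO points overlap in all 7.

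Klf2, the transcription factor of quiescence and recirculation, was the lowest of the 7 and the most variable. It stood at 24.6, 306 and 72.1 normalized counts in WT replicates 1 to 3 and at 140.1 and 47.9 in DKO replicates 1 and 2. The 3 WT libraries thus spanned 12.4-fold, and the DKO values lay inside that span. These values rest on 23, 297, 75, 160 and 58 reads. The exact 95% Poisson intervals, which cover counting error only, were 14.6 to 34.5 reads in WT replicate 1 and 264 to 333 in WT replicate 2. The mean was 134 ± 151 (SD, n = 3) in WT and 94.0 ± 65.2 (SD, n = 2) in DKO. The log2 fold change of DKO over WT, on the scale of log2(value + 1), was -0.0019 ± 0.92 (SE), with a 95% interval of -2.08 to 2.07 and an adjusted p of 0.999 in limma. An interval this wide holds a 4-fold change in either direction.

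S1pr1, the egress receptor for sphingosine 1-phosphate and a known target of KLF2, was at 489, 1696 and 403 in the WT libraries and 1032 and 384 in the DKO libraries. WT replicate 2 was 3.80 times the mean of the other 2 WT libraries, and DKO replicate 1 was 2.69 times DKO replicate 2. The lowest library of WT and the lowest of DKO were close to each other. Means were 863 ± 723 in WT and 708 ± 458 in DKO, and the log2 fold change was -0.14 ± 0.61 (95% interval -1.52 to 1.24).

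Ccr7, the receptor for CCL19 and CCL21 that guides cells to the T cell zone, had the widest gap between the DKO libraries. It was at 178, 575 and 112 in the 3 WT libraries, against 401 and 79.3 in the 2 DKO libraries. DKO replicate 1 stood 5.06 times above DKO replicate 2, and the span of WT was 5.11-fold. The log2 fold change was -0.34 ± 0.77, with an interval of -2.08 to 1.41.

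Gpr183, the receptor for 7α,25-dihydroxycholesterol that holds activated B cells in the outer follicle, was at 541, 1519.8 and 530.5 in the WT libraries and 1222 and 651 in the DKO libraries. The other 2 WT libraries were nearly equal, and both DKO libraries lay above them. Means were 864 ± 568 in WT and 937 ± 404 in DKO, with a log2 fold change of 0.23 ± 0.47 (interval -0.82 to 1.29). Gpr183 overlaps Ubac2 on the opposite strand in GENCODE M21, and the use of strand in the counting is not given in the sources used here. Ubac2 was at 392, 439 and 362 in the 3 WT libraries, against 276 and 352 in the 2 DKO libraries. Of the 2 libraries where Gpr183 was highest, Ubac2 had its highest value in WT replicate 2 and its lowest in DKO replicate 1.

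Ccr6, the receptor for CCL20, known from naive B cells and from light zone cells that leave as memory B cells, was at 244, 625 and 375 in the WT libraries and 522 and 321 in the DKO libraries. Its means were almost equal, 415 ± 194 in WT and 422 ± 142 in DKO. The log2 fold change was 0.09 ± 0.40, with an interval of -0.81 to 0.99.

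Fcer2a, which encodes CD23, the low-affinity IgE receptor of follicular B cells, was the most abundant of the 7. It was at 2235, 8249 and 6095 in the 3 WT libraries, against 8562 and 4952 in the 2 DKO libraries. WT replicate 3 lay 2.73 times above WT replicate 1 and WT replicate 2 a further 1.35 times above WT replicate 3. Of the 7, Fcer2a was the one gene with its highest value in DKO replicate 1 rather than WT replicate 2. Means were 5527 ± 3047 in WT and 6757 ± 2553 in DKO, and the log2 fold change, 0.43 ± 0.49, was the largest of the 7 (interval -0.69 to 1.55, adjusted p = 0.913 in limma).

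Cd38, an ectoenzyme that consumes NAD and a surface marker that mouse germinal center B cells carry at low levels, was the steadiest. It was at 1654, 3171 and 1741 in the WT libraries and 2359 and 1283 in the DKO libraries, a WT span of 1.92-fold. Means were 2189 ± 852 in WT and 1821 ± 761 in DKO, with a log2 fold change of -0.26 ± 0.35 (interval -1.05 to 0.52). GENCODE M21 places 2 noncoding genes over Cd38, Gm16014 on the same strand and Gm16015 on the other. Neither exceeded 67.1 normalized counts in any library.

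Compared per kilobase of exon, the 7 genes kept part of one order in every library. Fcer2a was highest, at 723 to 2769 normalized counts per kilobase, and Cd38 was second, at 330 to 815. In all 5 libraries Fcer2a exceeded Cd38 and Cd38 exceeded Gpr183. At the other end Ccr7 exceeded Klf2 in 5 of 5. Between these the order was not fixed: Gpr183 exceeded S1pr1 in 4 of 5 libraries, S1pr1 exceeded Ccr6 in 3 of 5 and Ccr6 exceeded Ccr7 in 4 of 5. Lengths are unions of GENCODE M21 exons, an annotation of another build than the mm9 the authors named.

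By genotype, 3 of the 7 had a fold change above 0 and 4 below, beside 6627 above and 6615 below among all genes tested. The median log2 fold change of the 7 was -0.0019, beside 0.0013 over all genes tested. That median ran from -0.70 without DKO replicate 1 to 0.69 without DKO replicate 2, and was -0.28 in edgeR and -0.27 in DESeq2. The spread inside the groups was wide. The residual SD of the log2 values was 1.60 for Klf2, 1.37 for Ccr7, 1.09 for S1pr1, 0.87 for Fcer2a, 0.80 for Gpr183, 0.62 for Ccr6 and 0.56 for Cd38, against a median of 0.35 over genes tested. For Klf2, 96.2% of genes tested had a smaller residual SD, and for Cd38 71.3%.

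The direction of the 7 changed with the libraries kept. Without WT replicate 2 all 7 genes were higher in DKO (log2 fold changes of 0.036 to 0.94), and without DKO replicate 2, which leaves DKO replicate 1 alone, all 7 were higher again (0.17 to 0.83). Without WT replicate 1 all 7 were lower (-0.85 to -0.0096). Without DKO replicate 1, 6 of 7 were lower, Ccr7 the most at -1.50, and Fcer2a was at 0.037. Without WT replicate 3 the genes were split, 2 higher and 5 lower (-0.84 to 0.60). With both WT replicate 2 and DKO replicate 1 left out, 4 genes were higher (Fcer2a at 0.42, Gpr183 at 0.28, Klf2 at 0.18 and Ccr6 at 0.09) and 3 lower (Ccr7 at -0.83, Cd38 at -0.40 and S1pr1 at -0.21). No gene of the 7 passed in any of these fits. Fits with 1 DKO library assume that it varies as the WT libraries do.

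**Figure D2:**
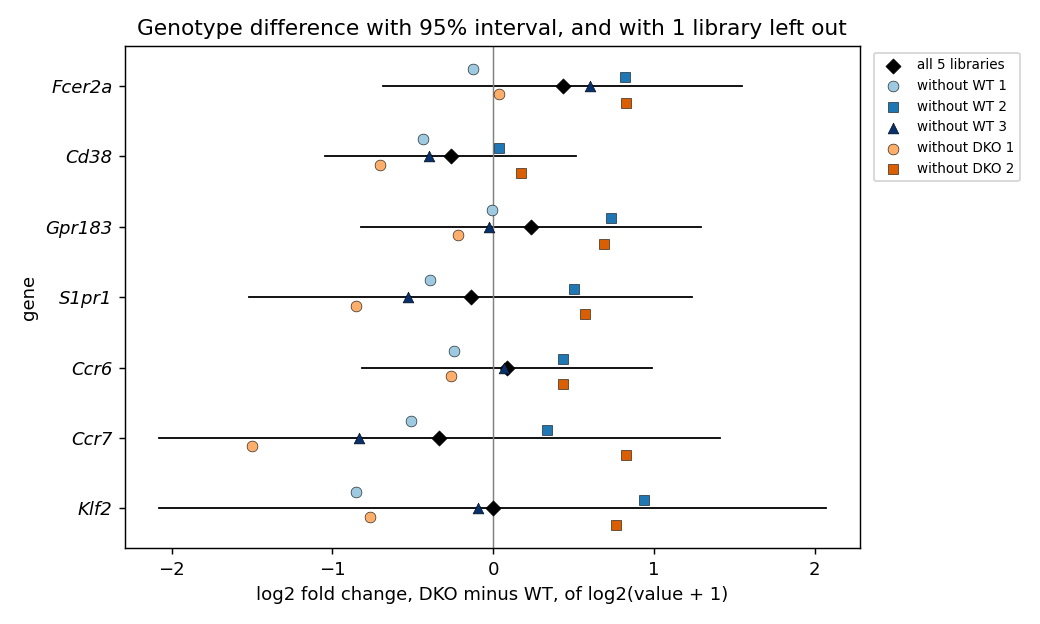
Log2 fold change of DKO over WT for each of the 7 genes with all 5 libraries (black diamonds, bars for the 95% interval) and with each library left out in turn (colored points). All 7 intervals cross 0, and all 7 points lie above 0 without WT replicate 2 and without DKO replicate 2.

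The 7 genes were set beside cell type markers by library. On the log2 scale, as deviations from the mean over libraries, the 7 averaged -0.73, 1.08 and -0.35 in WT and 0.61 and -0.61 in DKO. The 12 T cell markers tested averaged -0.99, 2.24 and -1.64 in WT and 1.18 and -0.79 in DKO. The same 2 libraries are high in both sets, and 11 of the 12 T cell markers and 5 of 6 NK cell markers were above the other 3 libraries in both WT replicate 2 and DKO replicate 1. Germinal center B cell markers stayed within 0.17 of their mean, and 1 of 7 had that order. Cd3e, a chain of the T cell receptor complex, was at 10.7, 363 and 7.69 in the 3 WT libraries, against 163 and 26.4 in the 2 DKO libraries. Thy1 and Tcf7, the other 2 most abundant T cell markers, were highest in WT replicate 2 as well, at 253 and 244. The medians of the 12 T cell markers (9 above 0, 3 below), the 6 NK cell markers (3 and 3) and the 7 germinal center markers (1 and 6) were log2 fold changes of 0.63, -0.30 and -0.13, and none of these genes passed. Cd8b1 was listed at 0 in WT replicate 3, Themis in WT replicate 1 and Cd3g in DKO replicate 2.

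**Figure D3:**
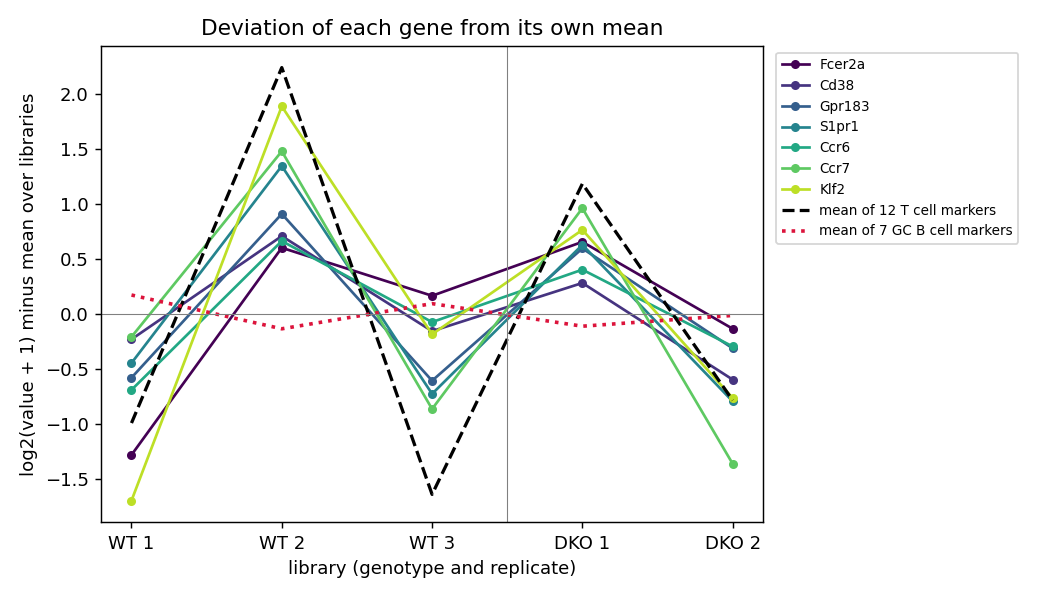
Deviation of log2(value + 1) from the gene's own mean over the 5 libraries, for the 7 genes (solid lines), the mean of 12 T cell markers (dashed) and the mean of 7 germinal center B cell markers (dotted). The 7 genes and the T cell markers peak in WT replicate 2 and DKO replicate 1, while the germinal center markers stay between -0.14 and 0.17.

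Mean T cell marker level was highest in WT replicate 2 (a log2 deviation of 2.24) and DKO replicate 1 (1.18), where all 7 genes were highest. Smaller standard errors of the 7 with this level as covariate are therefore no separate result from that library order. The covariate also leaves fewer residual degrees of freedom than the 3 of the fit without it. In a fit with mean T cell marker level as covariate, the standard errors of the 7 genes shrank more than those of most genes. For S1pr1 it was 0.21 in place of 0.61, a ratio of 0.34, and 0.060% of genes tested had a smaller ratio. For Gpr183 it was 0.20 in place of 0.47, for Ccr7 0.35 in place of 0.77, for Cd38 0.19 in place of 0.35 and for Klf2 0.55 in place of 0.92. Ccr6 and Fcer2a had ratios of 0.70 and 0.79, and the median ratio over genes tested was 0.92. In that fit Cd38 was at -0.36 ± 0.19 (unadjusted p = 0.097), Ccr7 at -0.56 ± 0.35, S1pr1 at -0.33 ± 0.21 and Gpr183 at 0.09 ± 0.20, none past the threshold in limma, which 0.0227% of genes tested passed in this fit (adjusted p = 0.643 to 0.998, against 0.913 to 0.999 with no covariate). Whether the T cell transcripts and these 7 come from the same cells was not tested.

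**Figure D4:**
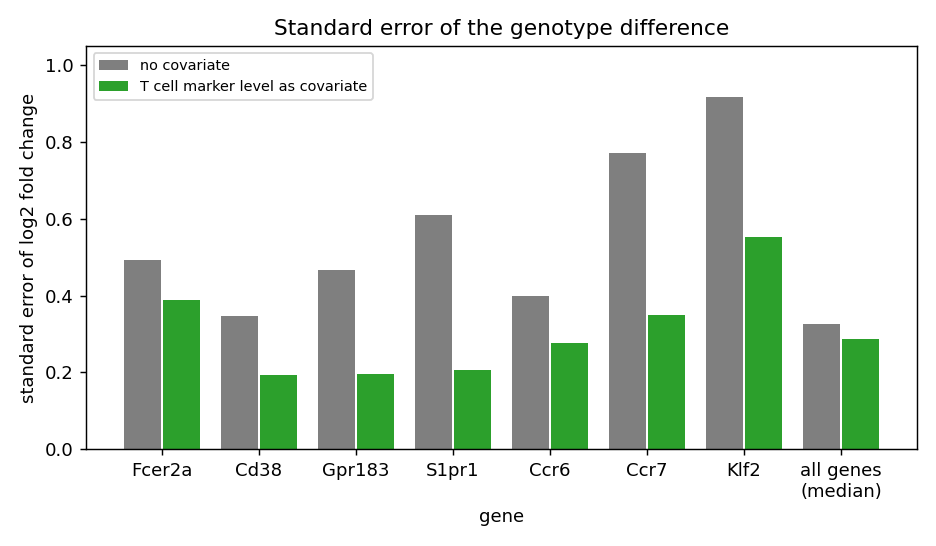
Standard error of the log2 fold change of DKO over WT for each of the 7 genes and, at the right, the median over all genes tested, without a covariate (grey) and with T cell marker level as covariate (green). The error falls from 0.61 to 0.21 for S1pr1 and from 0.33 to 0.29 for the median gene. The covariate is highest in the libraries where the 7 genes are highest, so the fall is no separate result.

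Among themselves the 7 profiles fell closest together for Cd38 and Ccr6, with a root mean square difference of 0.26 on the log2 scale over the 5 libraries, followed by Gpr183 and Ccr6 (0.28), Gpr183 and S1pr1 (0.30), Fcer2a and Ccr6 (0.32) and S1pr1 and Ccr7 (0.32). Fcer2a and Ccr7 were farthest apart, at 0.96. As deviations from its mean, Fcer2a lay at -1.28 in WT replicate 1, 0.16 in WT replicate 3 and -0.14 in DKO replicate 2, where Ccr7 lay at -0.21, -0.87 and -1.36. Klf2 and Ccr6 shared with Fcer2a the place of WT replicate 1 as the lowest library, while Ccr7, S1pr1 and Cd38 were lowest in DKO replicate 2.

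Over 8718 other genes with a mean of at least 100, the profile most like that of each gene was that of Dgka for Ccr6 (difference 0.038), Pdlim2 for Cd38 (0.071), Cmah for Gpr183 (0.086), Ifi203 for Ccr7 (0.10), Slc37a2 for Fcer2a (0.12), Pml for S1pr1 (0.15) and Lpar6 for Klf2 (0.26). The next 2 in each case were Slc2a3 and Atp5sl for Ccr6, Runx3 and Cytip for Cd38, Irak2 and Wars2 for Gpr183, Dpp4 and Cnn3 for Ccr7, Mafk and Cacna1i for Fcer2a, Aff1 and Serpinb6a for S1pr1, and Irak3 and Abcg1 for Klf2. The median difference over the 8718 genes ran from 0.53 for Cd38 to 1.28 for Klf2. Dgka, which encodes a diacylglycerol kinase, was at 613, 1502 and 876 in the WT libraries and 1263 and 803 in the DKO libraries. These genes were chosen for their likeness, over 5 libraries only.

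Partners of the trafficking receptors were measured in the same libraries. Of 11 genes of the sphingosine 1-phosphate axis, 9 were tested, 3 with a fold change above 0 and 6 below (median -0.15, beside 0.0013 over all genes tested). None passed in limma. Of the 9, 1 (Sgpl1) had an unadjusted p under 0.05 in limma, beside 6.06% of all genes tested. S1pr2, the receptor that confines germinal center B cells, averaged 2104 ± 679 (SD) in WT and 1857 ± 465 in DKO. It was lowest in WT replicate 2 and DKO replicate 1, at 1448 and 1528, the libraries where S1pr1 was highest. Of the 9 genes tested on this list, 4 instead had the library order of the 7 (Sphk2, Ppap2b, Spns2 and Cd69), beside 15.3% of all genes tested. The phosphatase gene Sgpp1 and the lyase gene Sgpl1, which remove sphingosine 1-phosphate, had log2 fold changes of -0.24 ± 0.19 and -0.50 ± 0.22.

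Ligand genes, known from stromal and epithelial cells, were at or near 0. Ccl19 and Ccl20 were listed at 0 in every library and Ccl21a at no more than 1.07. The oxysterol enzymes Ch25h and Cyp7b1, which make the GPR183 ligand, were also at 0, while Hsd3b7, which degrades it, averaged 23.4 ± 10.1 in WT and 47.4 ± 8.57 in DKO (log2 fold change 1.06 ± 0.60, adjusted p = 0.865 in limma). Cyp27a1, the other oxysterol gene tested, had a log2 fold change of -0.74 ± 0.46. The follicle and dark zone receptors Cxcr5 and Cxcr4 were at -0.33 ± 0.23 and -0.10 ± 0.23. Unlike the 7, neither was above the other 3 libraries in both WT replicate 2 and DKO replicate 1.

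Of 11 genes of Gi coupling and receptor desensitization, 5 had a fold change above 0 and 6 below, with none passing and a median of -0.06. The log2 fold changes of the 3 most abundant were -0.15 ± 0.23 for Gnai2, which carries the signal of these chemokine receptors, and, for Gna13, which couples S1PR2 to the arrest of migration, 0.18 ± 0.24. The Rac activator Dock2 was at 0.18 ± 0.20. Among 6 Klf and Foxo genes, 4 were above 0 and 2 below, none passing (median 0.06). Foxo1 was at 0.15 ± 0.19, Klf6 at 0.07 ± 0.18 and Klf13 at 0.04 ± 0.23. Of these 6, 3 followed the library order of the 7 (Klf3, Klf13 and Foxo3), beside 15.3% of genes tested. Klf3, chosen after its values were seen, was at 408, 1373 and 178 in the WT libraries and 915 and 211 in the DKO libraries.

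For CD23 and CD38, 5 of 6 partner genes were tested, 4 above 0 and 1 below, none passing (median 0.61). Adam10, the protease that sheds CD23, was steady, at -0.13 ± 0.19. Ighe, the constant region of IgE, which CD23 binds, was at 368, 144 and 173 in the 3 WT libraries, against 401 and 265 in the 2 DKO libraries.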

How the data were processed

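The authors deposited 1 table with a normalized signal per gene and library, which is the read count divided by 1 scaling factor: 100% of values above 0 (99.995% in DKO replicate 2) lay within 0.01 of a whole multiple of the library's smallest value. Tools in the submitters' processing notes are TopHat2 2.0.4, Cufflinks 2.0.2 and CASAVA 1.8.2, with the build mm9, while the counter and the annotation are not given in these sources. Per the labels' protocols, RNA was amplified with the NuGEN Ovation system before sequencing. Dividing by the smallest value gave back whole reads for edgeR 4.0.16 and DESeq2 1.42.0.

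Genes with a mean of at least 10 (13242) entered a limma 3.58.1 fit (R 4.3.3) on log2(value + 1), two-sided, with a mean-variance trend and Benjamini-Hochberg adjustment over all of them, at a threshold of 0.05. This scale understates changes of low genes. The 7 genes, 15 other lists (122 entries) and the alternatives were chosen with earlier results of these data known. The rule for names took the 7, Relb and Nfkb2, the 3 most abundant tested genes per list, overlapping genes and the 3 nearest profiles per gene. Other list genes given with values were picked after these were seen. Some genes under the rule are not reported here. Of the list entries, Ighd and Hbb-b1 had no row and Cr2 had 2 rows, so they were left out.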

Additional observations from a re-analysis of the deposited data

How the results depend on the processing

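No alternative called any of the 7 genes in 19 settings. Over all genes the count called was 0 in limma and edgeR, 29 with DESeq2 and 36 with the replicate block. It was 2 with library weights, 3 with the T cell marker covariate and 0 to 1 with a WT library left out. The replicate block leaves fewer residual degrees of freedom than the 3 of the main fit. WT replicate 3, alone in its block, does not enter its fold changes, which equal those without WT replicate 3 for each of the 7. Leaving out 1 library moved log2 fold changes from -0.12 to 0.83 for Fcer2a, -0.85 to 0.94 for Klf2, -1.50 to 0.83 for Ccr7, -0.85 to 0.57 for S1pr1, -0.22 to 0.74 for Gpr183, -0.70 to 0.17 for Cd38 and -0.26 to 0.44 for Ccr6, so the sign of each turned with single libraries. Klf2 also turned to 0.0017 at a pseudocount of 0.5, 0.066 with equal sums outside the mitochondrial genome, 0.014 with Gm26924 also left out of the sums (a setting added after seeing the data), 0.28 with library weights and 0.18 without WT replicate 2 and DKO replicate 1 together. Ccr6 turned to -0.0049 with the covariate. With the replicate number as a block, Gpr183 turned to -0.023. The numbers are not shown to pair the libraries: across genes, deviations from the group means had r = 0.0050 between the libraries numbered 1 and -0.28 between those numbered 2, and WT replicate 3 has no partner. The deviations of the 2 DKO libraries from their mean mirror each other. Each r with DKO replicate 2 is therefore that with DKO replicate 1 with its sign turned (0.28 for WT replicate 2 with DKO replicate 1). These values cannot decide whether the numbers pair the libraries. Quantile and TMM scaling turned none of the 7. Klf2 was at -0.53 in edgeR and -0.52 in DESeq2, against -0.0019 in limma. The 95% intervals, which limit what 5 libraries can show, ran from -1.05 to 0.52 for Cd38, the narrowest, and from -2.08 to 2.07 for Klf2, the widest.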

Other observations

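Other genes of naive follicular B cells, a list of 15 of which 13 were tested, had 6 fold changes above 0 and 7 below, with a median of -0.02. None passed the adjusted threshold in limma, and 1 of the 13 had an unadjusted p under 0.05, beside 6.06% of all genes tested. In 7 of the 13, WT replicate 2 and DKO replicate 1 were above the other 3 libraries, an order found in 15.3% of genes tested. Cd55, a complement regulator, was at 1748, 5714 and 1039 in the 3 WT libraries, against 5628 and 1077 in the 2 DKO libraries, and Satb1, a chromatin organizer, at 864, 4014 and 1362 against 4381 and 1833. Cd55 and Satb1 were chosen after their values were seen. Of the 3 most abundant members, Tnfrsf13c, the BAFF receptor gene, had a log2 fold change of -0.05 ± 0.20, Cd22 of -0.08 ± 0.21 and Btla of 0.12 ± 0.28. Btla, an inhibitory receptor gene, had the library order of the 7, at 10429, 13949 and 11308 in the WT libraries and 16929 and 9721 in the DKO libraries. The member with an unadjusted p under 0.05 was Ltb, which encodes lymphotoxin β, at 509, 670 and 526 in the WT libraries and 343 and 178 in the DKO libraries (log2 fold change -1.18 ± 0.31, adjusted p = 0.82).

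Markers of other B cell states were counted by the same order. The order of WT replicate 2 and DKO replicate 1 above the rest was found in 1 of 7 marginal zone, 1 of 5 memory and 1 of 5 plasma cell genes, beside 15.3% of genes tested. As mean deviations on the log2 scale, the marginal zone genes were at -0.21, 0.52 and -0.0054 in the 3 WT libraries, against 0.065 and -0.37 in the 2 DKO libraries, with the same 2 libraries highest. The median log2 fold changes of the 3 lists were -0.13 (3 above 0, 4 below), -0.31 (1 and 4) and -0.41 (0 and 5), with none past the threshold in limma. In the 3 lists 2, 0 and 0 genes had an unadjusted p under 0.05 in limma, beside 6.06% of all genes tested. The most abundant marginal zone genes, S1pr3, Dtx1 and Mzb1, had log2 fold changes of 0.38 ± 0.29, -0.58 ± 0.19 and 0.0031 ± 0.22, and the most abundant plasma cell genes, Xbp1, Irf4 and Igj, of -0.41 ± 0.23, -0.57 ± 0.29 and -0.24 ± 0.27. The memory gene with that order was Hhex, a homeobox factor, at 177, 670 and 231 in the 3 WT libraries, against 447 and 132 in the 2 DKO libraries. Nt5e, another memory marker, which encodes CD73, was at 1053, 285 and 494 in the WT libraries and 298 and 505 in the DKO libraries, lowest where the 7 genes were highest. Of 7 myeloid and dendritic cell genes tested, 4 had the order, and the summed level of the 9 on the list was 1187, 1039 and 161 in WT and 1249 and 496 in DKO. Their median log2 fold change was 0.13 (4 above 0, 3 below), with Lyz2 at 0.13 ± 1.07, Csf1r at 1.35 ± 0.75 and Itgam at -0.13 ± 0.92, none passing. Of 3 erythroid and platelet genes tested, 1 had the order, and none passed (2 above 0, 1 below, median 1.03).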
